A study of Mus musculus with 12 samples.

Results

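The 6 myelin protein genes Mbp, Pmp22, Mag, Cnp, Mal and Ncmap were followed in sorted Schwann cells (SCs) of the mouse. They were taken as the rows of the count table whose Ensembl mouse identifier belongs to any of these symbols. This gave 6 of the 25700 listed genes. No measured value entered this matching, but the symbols were chosen with earlier results of these data known. All 6 passed the filter on low counts and were among the 18597 genes tested. The question was how much of each transcript the cells of the 3 sorting gates contained, and whether the 6 transcripts changed by the same factor between gates.

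Sciatic nerves of mice at postnatal day 5 were dissociated and sorted by FACS. Every animal was P0Cre-/+ : ReYFP Tg/+ : βAct-DsRed Tg/+, so it carried a Cre under the P0 promoter, a YFP reporter that this Cre switches on and a red reporter expressed in all cells, and no group lacked the Cre or a reporter. The mSC gate held eYFP-positive cells with high side scatter and was meant to enrich myelinating SCs, the nmSC gate held those with low side scatter and was meant to enrich cells that were not myelinating, and the allSC gate held both. Each gate gave 4 libraries from 4 animals, and the labels give the libraries of the 3 gates with 1 number the same subject. Cells were kept because P0Cre had been active in them or their precursors. The sort thus aimed to leave out cells that this driver did not mark, and its purity was not tested here. The male and female animals that the study used could not be told apart from the labels. Libraries held between 8180927 and 16918122 counts. In such bulk samples, fewer cells of a type and less RNA per cell cannot be told apart.

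In the GRCm38 build, Mbp lies at chr18:82475146-82585637 on the plus strand, Pmp22 at chr11:63128982-63159547 on the plus strand, Mag at chr7:30899176-30914873 on the minus strand, Cnp at chr11:100574904-100591729 on the plus strand, Mal at chr2:127633226-127656695 on the minus strand and Ncmap at chr4:135369576-135398227 on the minus strand. Counts cover whole genes, so exons of all transcripts of a gene enter 1 value. Of the exons of Cnp, 154 bases (4.23%) overlap Dnajc7 on the other strand, and since the use of strand in counting is not stated, reads there cannot be assigned with certainty. The exons of the other 5 genes overlap no other annotated exon.

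Myelin is the spirally wrapped membrane of a SC around a larger axon. In its compact part the membrane faces are held tightly together, and in the noncompact part, next to the axon, at the edges of the sheath and in its incisures, cytoplasm remains. Pmp22 encodes a membrane protein of compact myelin with 4 membrane spans, and its gene dosage is known to matter in inherited neuropathy. Mbp encodes the basic protein that binds the cytoplasmic membrane faces to each other. Mag encodes a sialic-acid-binding adhesion protein of the membrane facing the axon, Cnp a phosphodiesterase of noncompact myelin, and Ncmap a small membrane protein of noncompact myelin. Mal encodes a proteolipid of lipid rafts that takes part in membrane traffic.

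As a description, the windows of 250 bases before the transcription start are shown for 3 of the 6 genes, as RefSeq gives them on GRCm38.p6, 5′ to 3′ on the strand of the gene. Whether the genes share regulation was not tested. RefSeq starts were matched for 5 of the 6 genes, all but Mbp. There were 4 starts for Pmp22, 3 for Mag, 2 for Ncmap and 1 each for Cnp and Mal. The windows shown are those of the outermost start of each gene. Pmp22 (chr11:63128732-63128981, plus strand) and Ncmap (chr4:135398228-135398477, minus strand) are shown as the genes with the greatest change between gates, and Mag (chr7:30914923-30915172, minus strand) as one with a smaller change. Capitals mark CCAAT on the reverse strand (ATTGG) and ACAAAG on the reverse strand (CTTTGT).
Pmp22: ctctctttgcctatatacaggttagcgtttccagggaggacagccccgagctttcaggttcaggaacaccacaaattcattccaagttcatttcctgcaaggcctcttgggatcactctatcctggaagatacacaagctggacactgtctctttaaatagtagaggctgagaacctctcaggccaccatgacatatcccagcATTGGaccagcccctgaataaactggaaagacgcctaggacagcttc
Mag: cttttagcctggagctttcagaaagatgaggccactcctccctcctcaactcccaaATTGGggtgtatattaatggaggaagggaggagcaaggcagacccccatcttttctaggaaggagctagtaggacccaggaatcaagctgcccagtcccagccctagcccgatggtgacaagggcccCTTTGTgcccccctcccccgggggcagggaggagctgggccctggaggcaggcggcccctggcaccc
Ncmap: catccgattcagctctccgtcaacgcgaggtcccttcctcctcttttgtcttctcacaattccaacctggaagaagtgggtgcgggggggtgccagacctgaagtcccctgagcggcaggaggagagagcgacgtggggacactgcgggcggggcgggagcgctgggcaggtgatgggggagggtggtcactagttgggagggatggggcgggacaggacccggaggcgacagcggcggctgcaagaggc

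The letters searched, on both strands, were GCGTGGGCG and the shorter GTGGGCG it contains, which resemble sites of Egr proteins, ACAAAG and AACAAT, which resemble sites of Sox proteins, TATAAA and CCAAT, which gave 6 searches. The Pmp22 window held CCAAT on the reverse strand 47 bases before the start, and the Mag window held ACAAAG 67 and CCAAT 194 bases before it, both on the reverse strand. The Ncmap window held none of them. At the other starts, CCAAT was found 219 bases before the second start of Pmp22, 143 before the second of Ncmap, and 161 and 134 before the third of Mag, and ACAAAG 126 bases before the second of Mag, and the last 2 starts of Pmp22 had no match. The window of Cnp held ACAAAG 167 bases before the start, and that of Mal held none. Among all 32851 starts, 33.8% of windows held CCAAT, 16.5% ACAAAG, 12.4% TATAAA, 9.42% AACAAT, 7.02% GTGGGCG and 0.536% GCGTGGGCG. A match describes these letters in this window and nothing about binding.

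One library stood apart before any member was considered. In mSC replicate 4, long genes were lower and short genes higher than in the other mSC libraries: the median log2 deviation, from the mean of the other libraries of the gate, of genes with at least 6272 exon bases minus that of genes with at most 3609 was -0.64 on the log2 scale, against 0.45 in mSC replicate 1 and between -0.06 and 0.14 in the other 10 libraries.

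**Figure D1:**
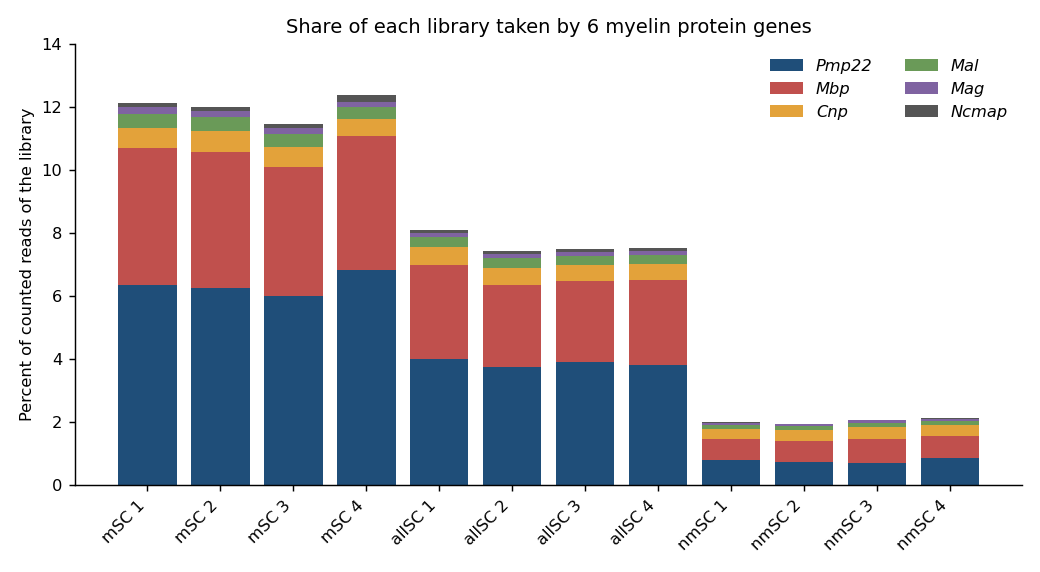
Stacked bars give the percent of all counted reads of each library (vertical axis, from 0) that fell on each of the 6 genes, for 4 libraries of each gate (horizontal axis). Pmp22 and Mbp fill most of every bar, the bars of the mSC gate reach 11.5% to 12.4%, and those of the nmSC gate reach 1.95% to 2.12%.

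Together the 6 transcripts took 12% ± 0.382 (SD, n = 4) of all counted reads in the mSC gate, 7.63% ± 0.319 (SD, n = 4) in the allSC gate and 2.04% ± 0.0762 (SD, n = 4) in the nmSC gate, as the plot of library shares shows. The ranges of 11.5% to 12.4%, 7.42% to 8.10% and 1.95% to 2.12% did not overlap. Pmp22 and Mbp, the genes of compact myelin, made up most of this. Both together took 10.6% ± 0.403 (SD, n = 4) of an mSC library and 1.46% ± 0.0655 (SD, n = 4) of an nmSC library, which was 88.4% and 71.5% of the reads of the 6 genes. Of the pair, Pmp22 fell from 53.1% ± 1.48 in mSC to 38.1% ± 2.94 in nmSC, while Mbp changed little, from 35.3% ± 0.811 to 33.4% ± 1.58 (SD, n = 4 each). Cnp moved the other way in this composition, from 5.20% ± 0.566 (SD, n = 4) of the reads of the 6 genes in mSC to 17.6% ± 1.13 (SD, n = 4) in nmSC, with 7.0% ± 0.239 (SD, n = 4) in allSC. Mal and Mag also rose, from 3.52% and 1.55% in mSC to 6.50% and 3.34% in nmSC, and Ncmap went from 1.35% to 1.10%. The Wilson 95% interval of a single share was at most 0.0301 percentage points wide in any library, and it covers counting error only.

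Pmp22 was the gene with the most counts in all 4 mSC and all 4 allSC libraries, and ranked 4th or 5th in nmSC. Mbp ranked 2nd in every mSC library and between 4th and 7th in nmSC. The change in rank was greatest for Ncmap, which stood between 29th and 56th in mSC, between 89th and 100th in allSC and between 571st and 808th in nmSC.

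Levels of different genes were compared per length, as RPKM (reads per kilobase of the union of exons, scaled to the counted reads of the library). In mSC, Pmp22 reached 27058 ± 1478 RPKM, Mbp 5002 ± 137, Cnp 1710 ± 150, Mal 1519 ± 124, Ncmap 731 ± 184 and Mag 457 ± 59.7 (SD, n = 4 each). Cnp and Mal, with 1494 to 1837 and 1408 to 1688 RPKM, were neighbours in this order whose libraries overlapped, and the other neighbours did not overlap. By this length the order in allSC was the same, from 16466 ± 473 RPKM for Pmp22 to 339 ± 24.8 for Mag (SD, n = 4).
In nmSC the order changed in 2 places. Cnp, at 983 ± 54.9 RPKM (SD, n = 4), stood above Mbp, at 805 ± 43.7 (SD, n = 4), and Mag, at 168 ± 15.4 (SD, n = 4), stood above Ncmap, at 101 ± 11.1 (SD, n = 4). Pmp22 was again highest, at 3298 ± 310 RPKM (SD, n = 4), and Mal lay at 478 ± 36.6 (SD, n = 4). These orders hold for the union of exons, and some places depended on the length used. The union of the exons of Mbp (8469 bases) is longer than its longest transcript (4797 bases), and per longest transcript Mbp lay at 1421 ± 77.2 RPKM and Cnp at 1232 ± 68.8 in nmSC (SD, n = 4). In allSC, Mag lay above Ncmap per longest transcript, at 568 ± 41.6 beside 446 ± 14.96 RPKM, and per mean transcript, at 889 ± 65.1 beside 777 ± 26.0 (SD, n = 4). In mSC, Ncmap and Mag were close per longest transcript, at 814 ± 205 and 764 ± 99.96 RPKM (SD, n = 4), so their order there was not clear.

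**Figure D2:**
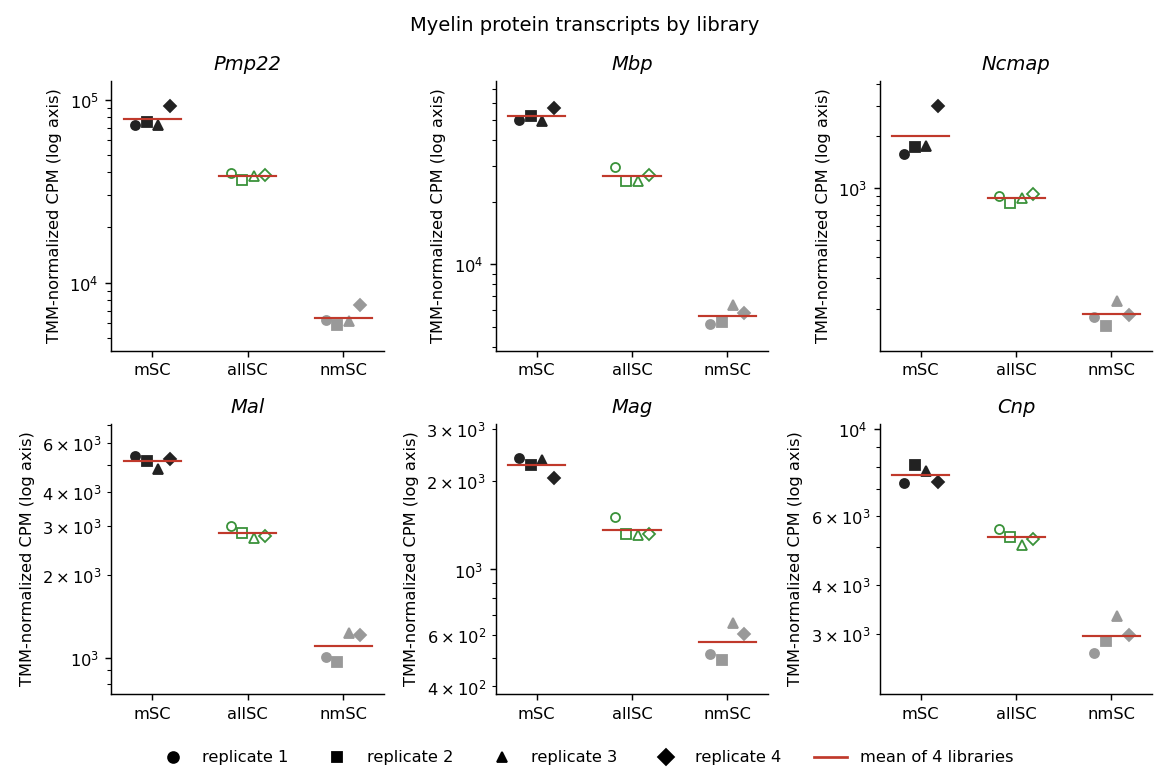
Each panel shows 1 gene, with TMM-normalized CPM on a log axis against the gate, 1 point per library (shape gives the replicate) and a red line for the mean of 4 libraries. In every panel the 4 mSC points lie above the 4 allSC points and these above the 4 nmSC points, and mSC replicate 4 stands apart for Ncmap.

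For levels between gates, counts were given as TMM-normalized CPM, scaled to a common library total by TMM factors, which set the bulk of genes equal between libraries. The size of a change depended on this scaling, and its range over other settings is given at the end. Values of single libraries are given in the order of replicates 1 to 4. All 6 transcripts were highest in mSC, intermediate in allSC and lowest in nmSC, and on this scale no library of 1 gate overlapped those of another for any of the 6. Of all tested genes, 6.61% fell in this order without overlap.

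Pmp22 stood at 73000.3, 75845, 72426 and 91893 CPM in mSC. The allSC libraries had 39697, 36390.3, 38333 and 38810.3 CPM, and the nmSC libraries had 6201, 5833, 6149 and 7523 CPM. The lowest mSC library was above every allSC library, and the spread within a gate was small beside the distance between gates. The mSC mean of 78291 ± 9191 CPM (SD, n = 4) was 12.2-fold the nmSC mean of 6427 ± 749 CPM (SD, n = 4) (95% interval 9.93 to 14.9). The log2 fold change was 3.61 (SE 0.14, adjusted p = 6.88e-13, quasi-likelihood test of edgeR, adjusted over all tested genes after Benjamini and Hochberg), and only 40 tested genes had a greater one.

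Mbp stood at 49650.0, 52245, 49144 and 56732 CPM in mSC. In allSC it had 29457, 25167, 25174 and 27134 CPM, and in nmSC 5175, 5247, 6366 and 5799 CPM. The gates were clearly apart, and within mSC replicate 4 was the highest, as for Pmp22. The mSC mean of 51943 ± 3470 CPM and the nmSC mean of 5647 ± 554 CPM (SD, n = 4 each) differed 9.20-fold (95% interval 7.60 to 11.1), a log2 fold change of 3.20 (SE 0.13, adjusted p = 1.06e-12, edgeR).

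Ncmap stood at 1588, 1733, 1750 and 3012 CPM in mSC, at 905, 825, 871 and 927 CPM in allSC and at 179, 158, 222 and 185 CPM in nmSC. Replicate 4 lay far above the other 3 mSC libraries, which were close to each other, and all 4 were above allSC. The mSC/nmSC log2 fold change was 3.44 (SE 0.19, 10.9-fold, adjusted p = 2.88e-11, edgeR). Without mSC replicate 4 it was 3.19, with an adjusted p of 4.38e-15.

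Mal, the raft proteolipid, ranged from 4846 to 5382 CPM in mSC, from 2717 to 3002 in allSC and from 964 to 1230 in nmSC. Between mSC and nmSC it was 4.69-fold apart (log2 fold change 2.23, SE 0.12, adjusted p = 2.58e-11, edgeR). Its 4 mSC libraries had a coefficient of variation of 4.44% on this scale and of 8.18% as shares of the library.

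Mag, the adhesion protein facing the axon, stood at 2399, 2272, 2356 and 2043 CPM in mSC, at 1511, 1316, 1314 and 1319.5 CPM in allSC and at 514, 490.4, 658 and 604 CPM in nmSC. Here mSC replicate 4 was the lowest of its gate, opposite to its place for Ncmap and Pmp22, and replicate 1 was the highest of the allSC gate. Its mSC/nmSC log2 fold change was 2.00 (SE 0.12, 4.00-fold, adjusted p = 1.79e-10, edgeR).

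Cnp, the phosphodiesterase, stood at 7256, 8088, 7773 and 7304 CPM in mSC and at 5528, 5288, 5053 and 5235 CPM in allSC. In nmSC it had 2669, 2878.5, 3328 and 2979.6 CPM. Its gates were the closest together of the 6 genes, though they did not overlap on this scale. The log2 fold change of 1.36 (SE 0.11, adjusted p = 1.00e-08, edgeR) was 2.57-fold, the smallest of the 6.

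**Figure D3:**
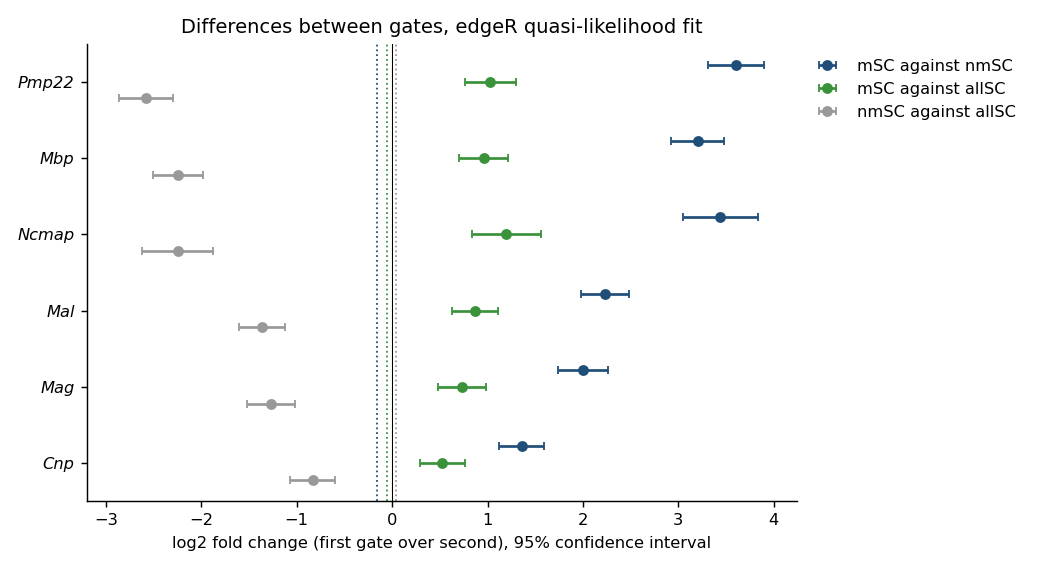
Points give the log2 fold change of each gene (first gate over second) in the 3 comparisons, bars the 95% confidence interval from edgeR, and dotted lines the median over all tested genes. Blue points (mSC against nmSC) run from 3.61 for Pmp22 to 1.36 for Cnp, green points (mSC against allSC) from 1.2 for Ncmap to 0.53 for Cnp, and grey points (nmSC against allSC) from -2.58 for Pmp22 to -0.83 for Cnp.

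All 6 genes passed the threshold of 0.05 for the adjusted p in all 3 comparisons, in the same direction in 4 of 4 pairs of libraries with the same subject number. Between mSC and nmSC 20.4% of all tested genes were called higher in mSC, so a call alone was common there, and the size of the change was less so: the median log2 fold change of the 6 was 2.71, beside -0.16 over all tested genes. Between mSC and allSC 8.76% of genes were called higher in mSC, and the median of the 6 was 0.91, beside -0.05 over all tested genes. Between nmSC and allSC 7.55% were called higher in allSC, and the median of the 6 was -1.80, beside 0.04. The last 2 comparisons share the allSC libraries.

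Against the mixed gate, Ncmap had the greatest log2 fold change in mSC, 1.2 (SE 0.17, adjusted p = 5.43e-05, edgeR), but this first place rested on mSC replicate 4, without which Ncmap had 0.965 and Pmp22 0.972. Pmp22 followed with 1.03 (SE 0.13), Mbp with 0.96 (SE 0.12) and Mal with 0.87 (SE 0.12), whose adjusted p were 9.52e-06, 1.23e-05 and 2.27e-05 (edgeR). Mag differed by 0.73 (SE 0.12, adjusted p = 0.00024) and Cnp by 0.53 (SE 0.11, adjusted p = 0.00243, edgeR). For Mag and Cnp these calls depended on scaling more than the others. As shares of the library, the lowest mSC and highest allSC value of Mag were 0.152% and 0.153% and those of Cnp 0.544% and 0.559%, so both overlapped, and with library size alone Cnp differed by 0.22 with an adjusted p of 0.0913.

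In nmSC against allSC, the log2 fold change was -2.58 for Pmp22 (SE 0.13, adjusted p = 1.33e-10), -2.25 for Ncmap (SE 0.18, adjusted p = 3.24e-08) and -2.24 for Mbp (SE 0.13, adjusted p = 3.51e-10). The other 3 genes were lower in nmSC by less: Mal with -1.36 (SE 0.12), Mag with -1.27 (SE 0.12) and Cnp with -0.83 (SE 0.11), with adjusted p of 9.37e-08, 4.71e-07 and 3.34e-05 (edgeR).

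**Figure D4:**
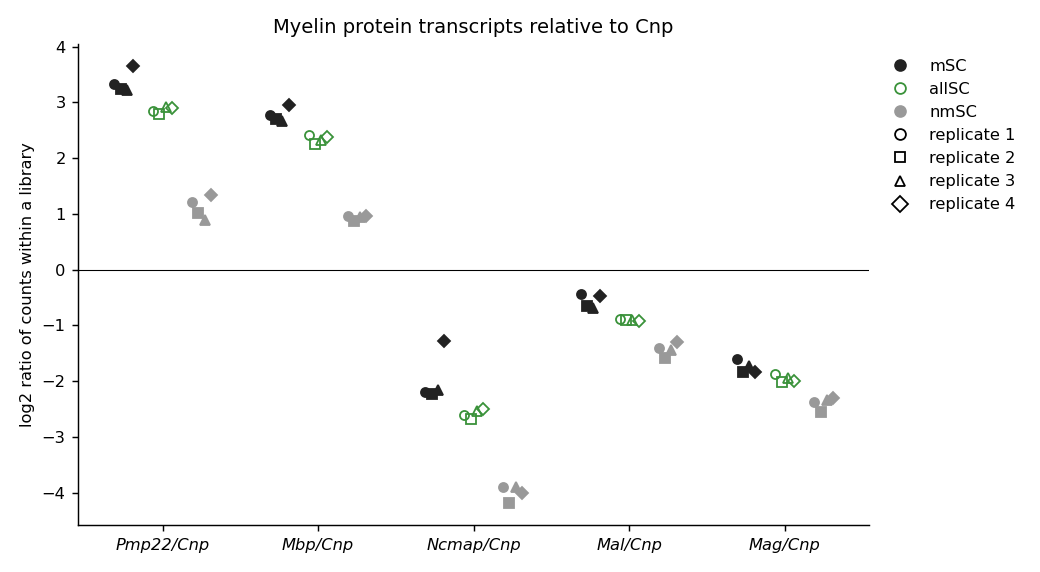
Each point is the log2 ratio of counts of 1 gene to Cnp within 1 library (vertical axis), by gate (colour) and replicate (shape). For all 5 genes the mSC points lie above the nmSC points, with mean differences from 2.24 for Pmp22/Cnp to 0.65 for Mag/Cnp.

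Whether the 6 transcripts changed by the same factor was tested with ratios of 2 genes within a library, log2 of (count + 1) over (count + 1), which do not depend on normalization. Of the 15 pairs, 13 differed between mSC and nmSC with no overlap of libraries. Each of the 13 had a two-sided exact permutation p of 0.0286, the smallest that 4 against 4 allow, and 0.0330 after Benjamini-Hochberg adjustment over the 15 pairs. This test treats the libraries as independent although gates share subjects, and no test within subjects was run. The ratio of Pmp22 to Cnp was 3.36 ± 0.203 (SD, n = 4) in mSC, 2.86 ± 0.061 (SD, n = 4) in allSC and 1.11 ± 0.201 (SD, n = 4) in nmSC, on the log2 scale. The difference of 2.24 between mSC and nmSC is a 4.74-fold change of Pmp22 relative to Cnp.

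The other ratios to Cnp, shown in the plot of ratios, rose by 2.04 for Ncmap, 1.84 for Mbp, 0.87 for Mal and 0.65 for Mag. Without mSC replicate 4, the ratios of Pmp22, Ncmap, Mbp, Mal and Mag to Cnp rose by 2.15, 1.81, 1.78, 0.85 and 0.68. Even the pair of compact myelin did not keep a fixed proportion: Pmp22 over Mbp was 0.59 ± 0.073 (SD, n = 4) in mSC and 0.18 ± 0.181 (SD, n = 4) in nmSC, a difference of 0.40, or 1.3-fold. The smallest difference among the 13 was that of Mal over Mag, 0.23. Ncmap over Pmp22 (difference -0.21) and Ncmap over Mbp (difference 0.20) overlapped between gates, each with an exact permutation p of 0.314, so a difference in the change of Ncmap and these 2 genes was not shown. Without mSC replicate 4 those 2 differences were -0.33 and 0.03, and the libraries of Ncmap over Pmp22 no longer overlapped, with at most -5.37 in mSC and at least -5.35 in nmSC. That ratio then had an exact permutation p of 0.0571, the smallest that 3 against 4 allow.

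The allSC gate holds both kinds of cell, so its level of each transcript can be set between the other 2 gates. If the allSC RNA were a mixture of mSC and nmSC RNA, the shares of the library would place the part from mSC at 56.9% by Mbp, 55.4% by Pmp22, 59.3% by Mag, 66.6% by Cnp, 53.2% by Mal and 47.6% by Ncmap. Taken within each subject number, the values ran from 51.6% to 56.6% for Mal, the narrowest range, and from 49.97% to 86.0% for Cnp, the widest. The median over the 1072 genes with a mean of at least 10 CPM called at least 2-fold higher in mSC was 54.6% and over the 627 called at least 2-fold higher in nmSC 53.6%, so Mbp, Pmp22 and Mal lay near both. These are descriptions with no test, and on the TMM scale they fell to between 37.9% (Ncmap) and 49.8% (Cnp). Ncmap moved most without mSC replicate 4, to 55.7%, while Cnp gave 60.6%, Pmp22 57.0%, Mbp 56.8%, Mag 54.1% and Mal 51.4%.

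Across the 12 libraries, log2(TMM-normalized CPM + 1) of the 6 genes was correlated at r from 0.9745 (Mag and Ncmap) to 0.997 (Mbp and Pmp22), as a description with n = 12, since the libraries fall into 3 gates. The 5 other genes most like the 6, by mean r among 9394 genes with a mean of at least 10 CPM, were Slc36a2 (0.994), Elovl6 (0.994), Aif1l (0.993), Nsdhl (0.993) and Pcyt2 (0.993). Elovl6 elongates fatty acids, Nsdhl acts in cholesterol synthesis, Pcyt2 acts in the synthesis of phosphatidylethanolamine and Slc36a2 carries amino acids. Elovl6 averaged 1086 ± 72.1 CPM in mSC beside 197 ± 24.6 in nmSC, and Slc36a2 averaged 989 ± 89.9 and 145 ± 19.6 (SD, n = 4 each).

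Of 20 other myelin protein genes, 18 were called higher in mSC than in nmSC, 1 lower (20.1% of all tested genes were called lower in mSC) and 1 was not called, with a median log2 fold change of 1.82, beside 2.71 for the 6 and -0.16 over all tested genes. Without mSC replicate 4 these were 17 and 1 (20.3% of all tested genes higher and 19.6% lower), and with library size alone 16 and 2 (7.79% higher and 55.9% lower). Pmp2, a fatty-acid-binding protein of myelin, stood at 3909 ± 882 CPM in mSC beside 154 ± 34.9 in nmSC (SD, n = 4 each), a log2 fold change of 4.66 (SE 0.19, adjusted p = 1.06e-12, edgeR), above that of every one of the 6. Cd9, a tetraspanin, had 3.16, Pllp, a plasmolipin of the family of Mal, 2.29, Prx, a protein of the SC membrane around the sheath, 1.69, Cldn19, a tight junction claudin, 1.52 and Gjc3, a gap junction connexin, 1.19 (SE from 0.12 to 0.18 on the log2 scale). Tspan2, another tetraspanin, went the opposite way with -1.27 (SE 0.19, adjusted p = 2.35e-05, edgeR), at 10.04 ± 1.48 CPM in mSC beside 24.3 ± 5.90 in nmSC (SD, n = 4 each). Litaf, at 296 ± 43.0 CPM in mSC and 287 ± 37.0 in nmSC (SD, n = 4 each), was the gene not called.

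**Figure D5:**
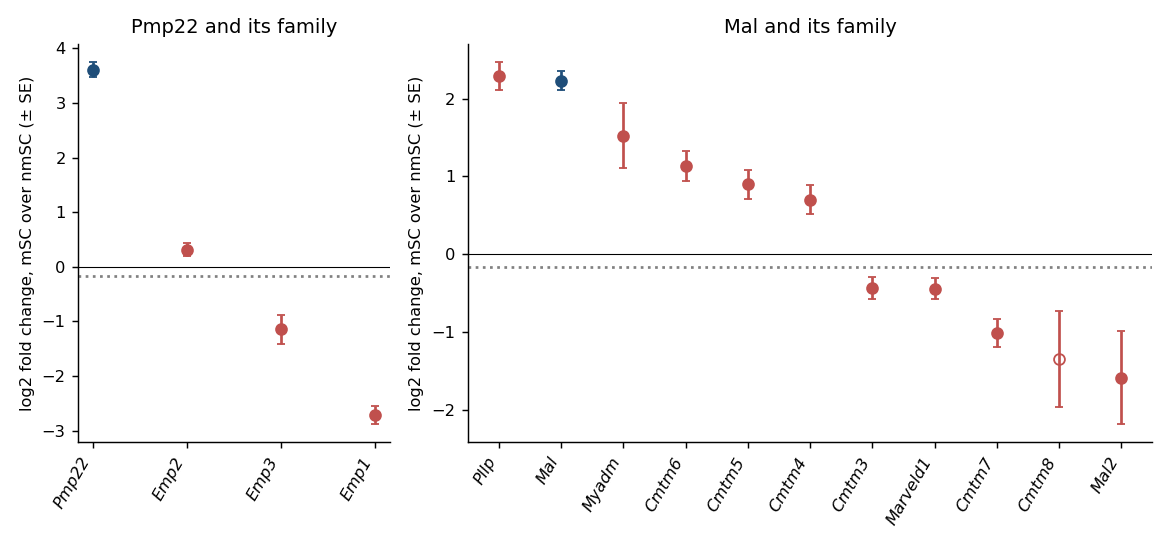
Log2 fold changes of mSC over nmSC with standard errors, for Pmp22 and its family (left) and Mal and its family (right), each panel with its own vertical axis; blue points are Pmp22 and Mal, red points the other members, open points were not called, and the dotted line is the median of all tested genes (-0.16). Pmp22 lies far above its relatives, while Pllp lies beside Mal and 5 other relatives of Mal lie below 0.

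Relatives of the members by sequence family went in both directions. In the family of Pmp22, Emp1 was lower in mSC, at 11.9 ± 2.63 (SD, n = 4) CPM beside 77.8 ± 9.41 in nmSC (log2 fold change -2.71, SE 0.16), and Emp3 differed by -1.15 (SE 0.26), with adjusted p of 1.12e-10 and 0.00182 (edgeR). Emp2 passed the threshold narrowly at 0.32 (SE 0.12, adjusted p = 0.0459, edgeR), but with library size alone it was -0.24 and with library size without the 50 genes with the most counts -0.040. Lim2 was too low to test.

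In the family of Mal, 5 of 10 tested genes were called higher and 4 lower in mSC, and 5 and 3 without mSC replicate 4, beside the 20.4% and 20.1% of all tested genes. With library size alone, 2 were called higher and 5 lower, beside 7.79% and 55.9%. Pllp, Cmtm6 (1.13, SE 0.19) and Cmtm5 (0.90, SE 0.18) were the most abundant of those higher, and Cmtm3 (-0.43, SE 0.14), Marveld1 (-0.44, SE 0.14) and Cmtm7 (-1.01, SE 0.18) of those lower. Of the other sialic-acid-binding lectins, the family of Mag, none of 6 tested was called higher and 3 were called lower, beside 20.1% of all tested genes, and with library size alone 6 were lower, beside 55.9%. Among the 3 was Siglecf, at 0.705 ± 0.208 CPM in mSC and 6.31 ± 1.56 in nmSC (SD, n = 4 each). The summed level of the 8 lectins was 3.99 to 7.53 CPM in mSC libraries.

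Known activators of myelin genes went in both directions. Of 15, 2 were called higher in mSC and 6 lower (20.4% and 20.1% of all tested genes), with a median log2 fold change of -0.22 beside -0.16 over all tested genes. With library size alone these were 1 and 12, beside 7.79% and 55.9% of all tested genes. Nab1, a partner of Egr proteins, was higher, at 60.6 ± 3.97 (SD, n = 4) CPM beside 7.16 ± 1.17 in nmSC (log2 fold change 3.08, SE 0.15, adjusted p = 9.37e-12, edgeR). Egr2, the main activating transcription factor of myelination, differed by 0.50 (SE 0.14, adjusted p = 0.00668, edgeR), and with library size alone by -0.058. Rxrg, a nuclear receptor, was lower, at 2.69 ± 1.13 CPM beside 88.3 ± 20.3 (SD, n = 4 each, log2 fold change -5.09, SE 0.26), and Adgrg6, Zeb2, Hdac1 and Pou3f2, all called lower, differed by between -0.75 and -0.50. Sox10, which marks the SC lineage, was at 267 ± 97.4 CPM in mSC and 266 ± 49.6 in nmSC (SD, n = 4 each).

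A further list held 11 genes taken as repressors of myelination, a role that was not tested here for any of them. Of these 11, 8 were called lower in mSC and 1 higher (20.1% and 20.4% of all tested genes), and 7 and 0 without mSC replicate 4 (19.6% and 20.3%). With library size alone, all but Id4 and Hmga2 were called lower (adjusted p of these 2 0.122 and 0.652, edgeR). In that setting 55.9% of all tested genes were called lower and 7.79% higher, so the list stood out less. Jun, at 264 ± 125 CPM in mSC and 654 ± 139 in nmSC (SD, n = 4 each), differed by -1.31 (SE 0.27), Id2 by -1.41 (SE 0.19), Egr1 by -1.94 (SE 0.21), Notch1 by -1.04 (SE 0.13), Egr3 by -4.03 (SE 0.19) and Hes1 by -2.27 (SE 0.24). Hmga2 was called higher at 0.72 (SE 0.25, adjusted p = 0.0262, edgeR) with all 4 mSC libraries, and without mSC replicate 4 it was 0.52 with an adjusted p of 0.0781. The median of these 11 was -1.17, beside -0.16 over all tested genes.

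Oligodendrocytes make central myelin with several of the same proteins, and their genes Mog, Opalin, Olig1, Olig2 and Nkx2-2 were each below 1 CPM in all 12 libraries. Of the 9 genes of this list 4 could be tested. Aspa and Ermn were not called. Mobp was called higher in mSC, at 10.2 ± 2.17 CPM beside 2.44 ± 0.468, and Cldn11 lower, at 3.23 ± 2.03 beside 41.8 ± 6.19 (SD, n = 4 each). Some markers of other cells of the nerve also differed between mSC and nmSC. For all counts of calls in this paragraph, 20.4% of all tested genes were called higher in mSC and 20.1% lower. Single calls in such short lists are near these shares. The summed level of 5 endothelial genes was 49.0 to 71.2 CPM in mSC and 13.7 to 21.8 in nmSC, where Egfl7 and Kdr were called higher in mSC and Pecam1 lower (-0.95, SE 0.36, adjusted p = 0.0428, edgeR), with no lower call without mSC replicate 4. Of these 5, Pecam1, Cldn5 and Cdh5 were below 3 CPM in each mSC library. Of 6 neuronal genes, Nefl and Nefm were called higher in mSC, with a sum of 30.0 to 40.5 CPM beside 13.8 to 19.96. Of 5 immune genes 1 was called lower in mSC (Cd68), with a sum of 6.60 to 10.4 CPM beside 9.11 to 21.2, and Aif1 had no count in any mSC library. Of 5 fibroblast-like genes 1, Col1a1, was called lower in mSC, at 786 CPM beside 3420 CPM in nmSC, and it carried most of a sum of 436 to 1033 CPM beside 2922 to 4102. Of 5 mural genes 1 was lower (5.56 to 8.97 CPM beside 9.55 to 10.6), and of 5 perineurial genes 1 was higher and 2 lower (136 to 216 CPM beside 204 to 338). Their part in the differences of the 6 was not tested. Of 6 genes of SC identity 2 were called higher and 2 lower. S100b was among those higher, with 266 ± 65.5 CPM in mSC and 31.9 ± 3.60 in nmSC (SD, n = 4 each). Those lower were Erbb3 (-0.79, SE 0.19) and Cdh19 (-0.38, SE 0.14), with adjusted p of 0.00319 and 0.0303 (edgeR).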

How the data were processed

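The authors prepared libraries from sorted SCs by Smart-Seq2, aligned reads with STAR 2.6.1c to GRCm38.p5, as the submitters' processing notes list them, and counted reads per gene with featureCounts. The methods name a human build for this step, while the identifiers are those of mouse. The deposited values are raw counts, without normalization. The options for strand and multi-mapping reads are not stated. Positions, symbols and exon lengths came from GENCODE M21 (GRCm38), which matched 25664 of the 25700 listed identifiers.

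From the counts, TMM factors were computed with edgeR 4.0.16 in R 4.3.3, and the 12 libraries entered 1 quasi-likelihood model with the gate as its only term, after the expression filter of edgeR (adjustment after Benjamini and Hochberg, threshold 0.05). Ratios of members were tested by two-sided exact permutation of libraries, without use of the subject number. The edgeR comparison of mSC with nmSC was tested on simulated counts. Few genes were changed there, and no shift in library composition like that between the gates was built in. The other steps were not simulated. Libraries of a gate were no duplicates (chi-square per degree of freedom from 4.03 to 95.7, genes with at least 20 counts). The labels give libraries with the same number 1 subject. The correlation of their deviations from the gate means was between -0.23 and 0.25, and that of libraries with other numbers between -0.22 and 0.27.

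The members and the gene lists were chosen with earlier results of these data known. From each list, up to 6 called genes with the highest mean CPM and any that moved against the majority of the list are named, and some genes that this rule admits are not reported here. Alternatives covered scaling, filter, the subject number as a block, DESeq2 1.42.0, each library left out, gene length and pseudocount, and the counts of lists without mSC replicate 4 and under other scalings, and the parts in allSC without mSC replicate 4, were added after the data were seen.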

Additional observations from a re-analysis of the deposited data

Results flagged for a closer look

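In groups of 4 libraries, the highest or lowest value was checked for a gap to its neighbour that was large beside the whole range (Dixon's test, 95% level). In 39 such checks on the 6 genes and their sum, 3 patterns were found, while chance flags about 1 in 20 groups. Ncmap was far higher in mSC replicate 4 than in the other mSC libraries, at 3012 CPM beside 1588 to 1750, and at 0.224% of the library beside 0.138% to 0.145%. The same library had the largest difference between long and short genes, -0.64 on the log2 scale. Its part in the value of Ncmap was not tested, and without it Ncmap remained higher in mSC than in nmSC, by 3.19 in place of 3.44.

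Mag was higher in allSC replicate 1 than in the other allSC libraries, at 1511 CPM beside 1314 to 1319.5. The summed share of the 6 genes was highest in the same library, 8.10% of all counts beside 7.42% to 7.51%.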

How the results depend on the processing

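All 6 genes kept their direction and their call in the 3 comparisons under DESeq2 size factors, the DESeq2 Wald test, factors without the 6 genes, a filter of 1 count, library size without the 50 genes with the most counts, 2 gates alone and each library left out. The exception arose with library size alone, where Cnp in mSC against allSC fell to 0.22 (adjusted p = 0.0913). Leaving out 1 library moved the log2 fold changes of mSC against nmSC between 3.53 and 3.70 for Pmp22, 3.16 and 3.27 for Mbp, 3.19 and 3.56 for Ncmap, and 1.3 and 1.43 for Cnp. Ratios with 1 library left out cannot pass the threshold (smallest exact p 0.0571) and kept their direction. With the subject number as a replicate block, Pmp22, Mbp and Cnp differed by 3.61, 3.20 and 1.36, and no call of the 6 changed.

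With library size alone, 11840 genes were called between mSC and nmSC (7540 with TMM) and 2938 between nmSC and allSC (1929 with TMM), and 2899 in the latter with these 2 gates alone. This scaling put the median of all genes at -0.73 for mSC against nmSC, -0.36 for mSC against allSC and 0.30 for nmSC against allSC, and the share of calls higher in the first gate at 12.2%, 9.52% and 74.7%, in place of 50.3%, 49.9% and 27.2%. Library size without the top 50 genes gave 21.2%, 19.1% and 56.2%, with medians of -0.53, -0.26 and 0.19, and 2 gates alone gave 39.6% for nmSC against allSC. Emp2 turned to -0.24 with library size alone and to -0.040 without the top 50 genes, and Egr2 to -0.058 with library size alone. On the TMM scale, the part of mSC RNA in allSC was 45.5% by Mbp, 44.4% by Pmp22, 47.0% by Mag, 49.8% by Cnp and 42.6% by Mal. The cause was not tested. Counts at or under 3 in a library give no measurable difference at this depth, which touches none of the 6 genes.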
